A study of Drosophila melanogaster with 6 samples.

Results

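Aminoacyl-tRNA synthetases are the enzymes that attach each amino acid to its own tRNA. Drosophila melanogaster encodes all of them in the nucleus, both those that serve the cytoplasm and those that are imported into mitochondria. In general each cytoplasmic enzyme charges the tRNAs that read the nuclear genome's messages, and each mitochondrial enzyme charges the tRNAs encoded by the mitochondrial genome. Genes of this kind are known as housekeeping genes, since every dividing or growing cell needs charged tRNA. The genes were chosen by annotation symbol alone: an amino acid's three-letter name followed by RS, or by RS-m for the mitochondrial enzymes, with the prefix alpha- or beta- allowed. This gave 35 genes of the 17753 in the count table, of which 20 were filed as cytoplasmic and 15 as mitochondrial. The compartment was read from the symbol alone. Glutamine, glycine, histidine, lysine and threonine have no RS-m gene among them. Whether genes filed as cytoplasmic also serve mitochondria was not tested.

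Their nascent transcription was measured by global run-on sequencing (GRO-seq) in hand-picked, pooled stage 5 embryos, the stage at which zygotic genome activation (ZGA) is under way. Nuclear run-on RNA was sequenced, so RNA loaded by the mother is largely outside the measurement. The 3 Ctrl libraries carried genotype t180 and the 3 DomKD libraries genotype t216, in which an shRNA against Domino, the ATPase that deposits the histone variant H2A.Z, was driven in the mother's germline by mat-alpha-Gal4. The depletion therefore acts through the egg. The methods name the control line of the TRiP RNAi collection as the control, and do not spell out whether it was crossed to the driver. The sample names give 2 letters, A and B, treated here as batches: Ctrl A1, B1 and B2, and DomKD A1, A2 and B1.

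The libraries held between 10660708 and 24537992 gene-assigned reads. The 2 shallowest were DomKD A1 and A2. DomKD libraries held 564 to 1014 tested genes without a read, against 162 to 326 in Ctrl. The dom gene itself had 848, 811 and 707 CPM (counts per 1e6, on TMM-scaled library sizes) in Ctrl and 665, 690 and 966 CPM in DomKD (log2 fold change 0.01, SE 0.18, edgeR adjusted p = 0.973). RNA interference acts on mature RNA, so the nascent signal of dom does not check the labels. The 15 marker genes of stage 5 embryos, such as eve and ftz, summed to 6589 to 17106 CPM in Ctrl and 21491 to 36534 CPM in DomKD. Of the 14 tested, 14 rose in the edgeR test below, beside 12.1% of all tested genes. These marker values rest on TMM scaling. Under it 44 of 48 tested targets of Zelda, an activator of early zygotic transcription, also rose, and marker values under other scalings are not given. Markers of later embryos (11 genes) summed to 913 to 1056 CPM in Ctrl and 1533 to 1953 CPM in DomKD. Markers of the maternal germline (9 genes) summed to 121 to 129 CPM and 127 to 172 CPM. Yolk and fat body markers (6 genes) did not exceed 10.2 CPM in any library, and follicle cell markers (6 genes, 2 of them without a read in any library) did not exceed 2.92 CPM. The part of these marker differences in the results below was not tested. In pooled embryos, fewer nuclei that transcribe a gene and less transcription per nucleus cannot be told apart.

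Promoters of fly housekeeping genes often carry the DNA replication-related element (DRE) or the core elements named Ohler1, Ohler6 and Ohler7. The windows from 250 bases before to 50 bases after each annotated start were searched on both strands for DRE (TATCGATA, the same on both strands), Ohler1 (GGTCACAC), Ohler6 (GTATTTTT or GTATATTT) and Ohler7 (CAGCNCTA, CAGCNCTG, CATCNCTA or CATCNCTG). At least 1 of these was found at 17 of the 35 synthetase genes (48.6%) and at 5224 of 13827 protein-coding promoters (37.8%). The promoter shares here include genes with too few reads to be tested. Among tested genes, 17 synthetase genes had an element and 17 had none, beside 4271 and 4929 protein-coding genes. No excess of elements is therefore read from these shares. Of these 4 elements Ohler7 was the most frequent, at 11 of 35 genes (31.4%, against 19.0% of all promoters). DRE and Ohler1 stood at 5 genes each (14.3%, against 9.28% and 7.72%). Ohler6 was found at 4 genes (11.4%, against 12.4%). The TATA box (TATAAA) and the TAGteam motif of Zelda (CAGGTAG and variants) were searched too. The TATA box was found at 19 of 35 genes (54.3%, against 45.8% of all promoters) and TAGteam at 3 (8.57%, against 7.92%). The stretches below run from up to 200 bases before the start to 20 bases from it on, and stop earlier where the neighbouring gene begins. They were read 5′ to 3′ on the gene's strand from RefSeq's Release 6 genome, the dm6 build of the files. Capitals mark matches to the 4 elements. IleRS, AspRS-m and AlaRS are shown for their elements, and AsnRS and LeuRS because they fell strongly with none of the 4 elements in the window. AsnRS and LeuRS both hold matches to the TATA box, which are not marked. IleRS lies at chr3L:22288465-22288684 (plus strand), AspRS-m at chr2L:16826965-16827097 (plus strand), AlaRS at chr2L:8381745-8381820 (minus strand), AsnRS at chr2L:19131935-19132154 (minus strand) and LeuRS at chr2L:3514637-3514856 (minus strand).
IleRS: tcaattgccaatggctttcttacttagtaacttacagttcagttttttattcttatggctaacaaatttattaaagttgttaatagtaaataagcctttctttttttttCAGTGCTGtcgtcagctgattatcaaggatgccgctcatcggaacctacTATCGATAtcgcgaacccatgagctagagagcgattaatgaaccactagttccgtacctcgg
AspRS-m: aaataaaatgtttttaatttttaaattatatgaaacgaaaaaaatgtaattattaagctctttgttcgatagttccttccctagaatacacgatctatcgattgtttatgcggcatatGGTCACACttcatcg
AlaRS: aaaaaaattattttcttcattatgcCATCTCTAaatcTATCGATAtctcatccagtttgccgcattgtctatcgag
AsnRS: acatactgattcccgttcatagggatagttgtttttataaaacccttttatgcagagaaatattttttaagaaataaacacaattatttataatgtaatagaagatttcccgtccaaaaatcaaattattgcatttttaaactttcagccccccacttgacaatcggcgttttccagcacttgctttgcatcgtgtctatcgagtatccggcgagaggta
LeuRS: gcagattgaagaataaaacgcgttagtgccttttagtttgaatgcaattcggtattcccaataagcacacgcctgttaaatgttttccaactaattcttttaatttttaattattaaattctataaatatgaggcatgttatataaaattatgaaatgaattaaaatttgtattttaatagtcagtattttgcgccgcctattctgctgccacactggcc
A match is a description of letters and not of a bound factor.

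In Ctrl embryos the synthetase genes were transcribed at middling levels. Levels between genes are given as CPM per kilobase of annotated gene length, which for all 35 genes is the full span with introns. The median of the 34 tested genes was 9.07 CPM per kb, close to the middle of all 10429 tested genes (median percentile 51.5). A gene was tested where it had a mean of at least 10 reads over the 6 libraries. The cytoplasmic genes had a median of 9.70 CPM per kb and the mitochondrial genes 5.72 CPM per kb. GlnRS, which charges glutamine tRNA, had the highest mean at 28.9 ± 5.86 CPM per kb (SD, n = 3), at percentile 81.7 of the tested genes. AlaRS followed at 24.5 ± 1.54 CPM per kb and AspRS-m, the mitochondrial aspartate enzyme, at 22.5 ± 1.88 CPM per kb. The order of these 3 is not firm: in Ctrl A1 AlaRS was slightly above GlnRS, their ranges overlapped (23.1 to 34.8 CPM per kb for GlnRS, 23.3 to 26.3 CPM per kb for AlaRS), and AlaRS and AspRS-m were within their spread of each other. ValRS-m and SerRS-m, the mitochondrial valine and serine enzymes, stood lowest at 0.248 ± 0.0434 and 0.409 ± 0.164 CPM per kb, and LysRS was next at 1.03 ± 0.988 CPM per kb. MetRS-m had a low level per kilobase (2.97 ± 0.439 CPM per kb) over the longest span of the set, 10949 bases.

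HisRS was the 1 gene that could not be tested, with 0 reads in all 6 libraries. It lies at chrX:18515428-18520445 on the plus strand, and all of its 5018 bases are inside Bx on the same strand. By default featureCounts leaves reads that fit more than 1 gene on a strand unassigned, so no level of HisRS can be read from this table. AspRS, at chr2R:12877004-12883168, shares 277 of its bases with asRNA:CR43468 on the same strand, and the other tested members overlap no annotated gene on their strand. GluRS-m and TyrRS lie head to tail on the minus strand of chromosome arm 3L, 172 bases apart.

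**Figure D1:**
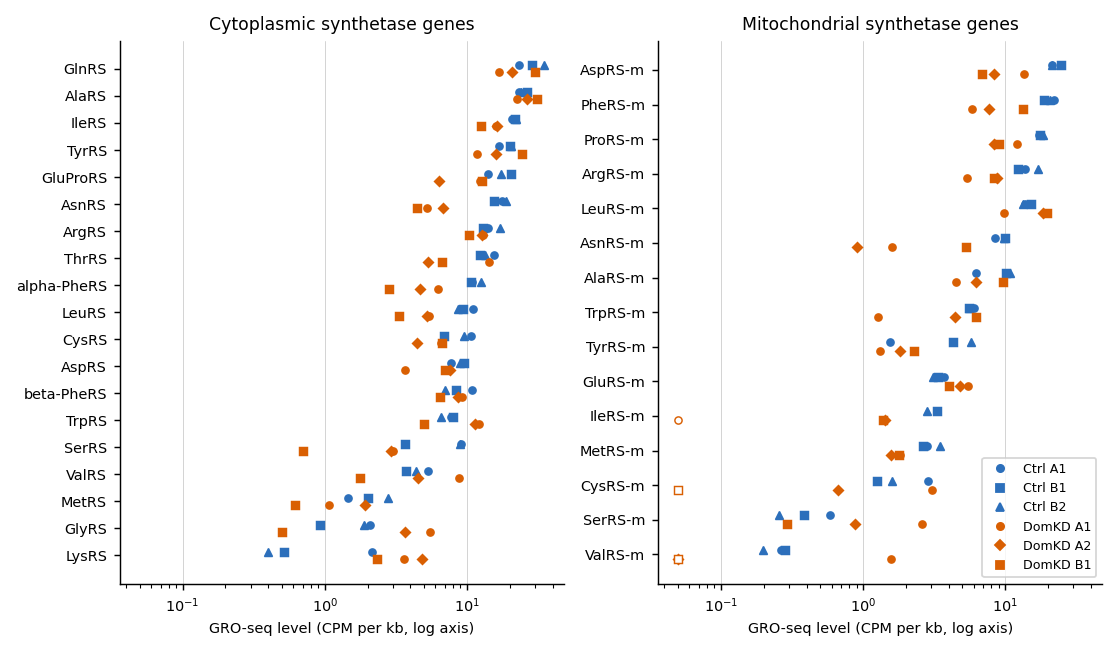
GRO-seq level of each of the 34 tested synthetase genes in every library (horizontal axis, CPM per kb on a log axis; blue, Ctrl; orange, DomKD; the marker shape gives the replicate). Open markers at the left edge are libraries without a read. Levels in Ctrl ran from 0.248 CPM per kb at ValRS-m to 28.9 CPM per kb at GlnRS.

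Domino depletion was compared with Ctrl to ask how transcription of these genes differs when H2A.Z deposition is impaired. Of the 34 tested genes, 9 fell and none rose past the threshold (edgeR's quasi-likelihood test with batch as a term, Benjamini-Hochberg adjusted over all tested genes, threshold 0.05). Over all tested genes 9.64% fell and 12.1% rose. The fallen genes made up 26.5% of the tested synthetase genes. They were AsnRS, IleRS, LeuRS, SerRS and alpha-PheRS among 19 cytoplasmic genes, and ArgRS-m, AsnRS-m, AspRS-m and PheRS-m among 15 mitochondrial genes. The log2 fold change was negative for 28 of the 34 genes, beside 5495 of all 10429 tested genes. The median was -0.58, beside -0.07 over all tested genes. The cytoplasmic median was -0.44 and the mitochondrial median -0.87, or -0.66 without CysRS-m, IleRS-m and ValRS-m, each of which had a DomKD library without a read. At an unadjusted p under 0.05, 13 genes were lower and 1, LysRS, was higher. The share of all tested genes at this unadjusted threshold is not given, so no excess is read from it.

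The number of synthetase genes past the adjusted threshold changed when single libraries were left out. DomKD B1 is the only DomKD library of batch B, and Ctrl A1 the only Ctrl library of batch A. With batch as a term, leaving out either of them leaves the comparison to the other batch alone. The fits without them therefore lose a whole batch and do not show dependence on that library itself. Without DomKD B1 no synthetase gene passed, and only 0.0287% of all tested genes fell. The number lower was 2 without Ctrl A1 (beside 1.81% of all tested genes), 3 without Ctrl B1 (3.88%) and 3 without Ctrl B2 (3.91%). It was 5 without DomKD A2 (9.73%) and 13 without DomKD A1 (15.1%). The median stayed negative in each of these 6 fits, between -0.85 and -0.41. Batch A alone gave a median of -0.46 and batch B alone -0.77.

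AsnRS charges asparagine tRNA in the cytoplasm. Its Ctrl libraries read 44.0 (A1), 38.4 (B1) and 46.7 CPM (B2). Its DomKD libraries read 12.9 (A1), 16.8 (A2) and 10.99 CPM (B1), and later values follow the same order. Every DomKD library was below every Ctrl library. The log2 fold change was -1.76 (SE 0.29, adjusted p = 0.00212), a 3.38-fold fall. Batch A alone gave -1.57 and batch B alone -1.93.

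AspRS-m, which charges mitochondrial aspartate tRNA, was the member with the next lowest adjusted p. It had 108, 124 and 107 CPM in Ctrl and 68.1, 42.0 and 34.2 CPM in DomKD. No DomKD library reached the Ctrl range, and B1 was lowest. The log2 fold change was -1.36 (SE 0.26, adjusted p = 0.00404). AsnRS and AspRS-m each passed in 15 of the 16 other fits, the exception being the fit without DomKD B1.

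LeuRS charges leucine tRNA. Its 3 Ctrl libraries had 47.8, 40.5 and 37.7 CPM and its DomKD libraries 23.3, 22.5 and 14.4 CPM, again with no overlap (log2 fold change -1.25, SE 0.27, adjusted p = 0.00699). It passed in 13 of the 16 other fits. IleRS, the isoleucine enzyme, had a smaller difference over tight replicates. It had 85.4, 90.3 and 92.1 CPM in Ctrl and 66.0, 67.0 and 51.7 CPM in DomKD. Its log2 fold change of -0.59 (SE 0.19, adjusted p = 0.0490) lay just inside the threshold, and it passed in 5 of the 16 other fits.

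SerRS charges serine tRNA and also the tRNA for selenocysteine. It had 17.4, 6.96 and 17.0 CPM in Ctrl and 5.80, 5.55 and 1.35 CPM in DomKD. The lowest Ctrl library, B1, was only slightly above the highest DomKD library. The log2 fold change was -2.35 (SE 0.67, adjusted p = 0.0283), and it was -1.59 within batch A.

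Phenylalanine is charged in the cytoplasm by an enzyme built of an alpha and a beta subunit. The gene for the alpha subunit, which holds the catalytic site, had 18.5, 18.3 and 21.4 CPM in Ctrl and 10.6, 7.99 and 4.78 CPM in DomKD (log2 fold change -1.52, SE 0.46, adjusted p = 0.0369). The gene for the beta subunit had 24.2, 18.5 and 15.6 CPM in Ctrl and 20.6, 19.1 and 14.4 CPM in DomKD. These beta-PheRS groups overlapped, and the log2 fold change of -0.27 (SE 0.33, adjusted p = 0.613) did not pass. Set against each other per kilobase within a library, alpha-PheRS over beta-PheRS was 1.00, 1.29 and 1.79 in Ctrl and 0.671, 0.547 and 0.436 in DomKD. The ratio was lower in every DomKD library, at 0.551 ± 0.118 against 1.36 ± 0.402 (SD, n = 3; two-sided exact permutation p = 0.1, the smallest that 3 against 3 allows). This ratio was chosen after the values were seen, and the permutation took no account of batch, so no support is drawn from its p. The change in its log2 was -0.72 in batch A and -1.80 in batch B.

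PheRS-m, the mitochondrial phenylalanine enzyme, which works as a single chain in yeast and human, had 35.4, 30.1 and 32.8 CPM in Ctrl. It had 9.37, 12.3 and 21.2 CPM in DomKD (log2 fold change -1.13, SE 0.33, adjusted p = 0.0313). AsnRS-m charges mitochondrial asparagine tRNA. Its Ctrl libraries were close together at 13.5, 15.9 and 15.8 CPM, and its DomKD libraries ranged from 2.56 and 1.44 CPM in A1 and A2 to 8.45 CPM in B1 (log2 fold change -1.80, SE 0.56, adjusted p = 0.0399). For both genes the batch B library of DomKD was the highest of the group, the opposite of AsnRS, LeuRS and SerRS. ArgRS-m, the mitochondrial arginine enzyme, had 42.7, 38.3 and 52.8 CPM in Ctrl and 16.8, 27.0 and 26.0 CPM in DomKD (log2 fold change -0.88, SE 0.28, adjusted p = 0.0440). SerRS passed in 10 of the 16 other fits, and alpha-PheRS, ArgRS-m, AsnRS-m and PheRS-m in 9 each.

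**Figure D2:**
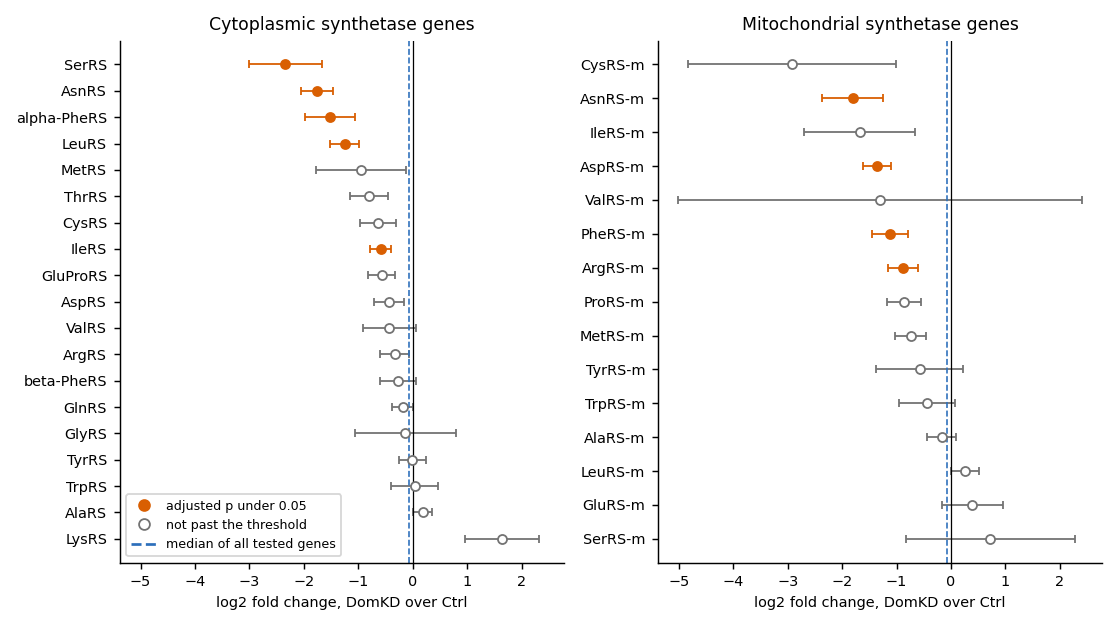
Log2 fold change of each tested synthetase gene, DomKD over Ctrl (horizontal axis; bars, SE of the edgeR fit; filled orange, adjusted p under 0.05), with the median of all tested genes as a dashed line. The 9 filled genes all lie left of 0, between -2.35 for SerRS and -0.59 for IleRS, and LysRS lies farthest right at 1.64.

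The remaining 25 tested genes did not pass. Beside ProRS-m (29.3 to 31.1 CPM in Ctrl, 14.0 to 20.4 CPM in DomKD) and MetRS-m (29.0 to 38.0 and 17.3 to 19.96 CPM), all 3 DomKD libraries were below all 3 Ctrl libraries also for AspRS, CysRS, GluProRS and IleRS-m. In total the groups were apart with DomKD below for 15 of the 34 genes (44.1%), against 23.4% of all tested genes. DomKD was above for 2 genes, against 17.2% of all tested genes. ProRS-m had an adjusted p of 0.0677 and a log2 fold change of -0.87 (SE 0.31), and MetRS-m an adjusted p of 0.0885 and -0.74 (SE 0.29). They were the closest to the threshold from outside, as IleRS was from inside. GluProRS, a single gene for both the glutamate and the proline enzyme of the cytoplasm, had 87.6, 128 and 109 CPM in Ctrl and 77.6, 39.7 and 80.3 CPM in DomKD (log2 fold change -0.57, SE 0.24, adjusted p = 0.118). AspRS, the cytoplasmic aspartate enzyme, had 47.9 to 59.2 CPM in Ctrl and 22.5 to 47.1 CPM in DomKD (-0.44, SE 0.28). CysRS, for cysteine, had 19.1 to 29.6 CPM and 12.2 to 18.4 CPM (-0.64, SE 0.34), a narrow gap between the groups.

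For others DomKD libraries disagreed among themselves. ThrRS, for threonine, had 42.2 to 52.7 CPM in Ctrl, while DomKD A1 stayed at 48.5 CPM and A2 and B1 were at 18.2 and 22.7 CPM (log2 fold change -0.81, SE 0.35, adjusted p = 0.119). MetRS, which supplies methionine to initiator as well as elongator tRNA, had 5.46 to 10.4 CPM in Ctrl and 2.32 to 7.22 CPM in DomKD (-0.95, SE 0.83). AlaRS-m had 23.3, 38.1 and 40.7 CPM in Ctrl and 16.9, 23.3 and 36.0 CPM in DomKD, with the A libraries lower than the B libraries in both groups (-0.17, SE 0.27). TyrRS-m likewise had 2.77 CPM in Ctrl A1 beside 7.66 and 10.2 CPM in Ctrl B1 and B2, and 2.34 to 4.04 CPM in DomKD (-0.58, SE 0.80).

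LysRS, which charges lysine tRNA, was 1 of the 2 genes with every DomKD library above every Ctrl library. It had 5.46, 1.30 and 1.00 CPM in Ctrl and 9.03, 12.1 and 5.91 CPM in DomKD. The log2 fold change of 1.64 (SE 0.68, adjusted p = 0.108) did not pass in the edgeR test. It passed with DESeq2 (adjusted p = 0.0449) and in edgeR without DomKD A1 (adjusted p = 0.0467). Ctrl A1 was higher than the other Ctrl libraries, and the value within batch A was 0.92. The other gene was GluRS-m, the mitochondrial glutamate enzyme, with 6.95, 6.39 and 5.84 CPM in Ctrl and 10.3, 9.10 and 7.55 CPM in DomKD (log2 fold change 0.39, SE 0.56, adjusted p = 0.671).

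The 2 genes with the highest mean level in Ctrl did not pass, with small values. GlnRS had 56.7, 70.8 and 85.5 CPM in Ctrl and 41.1, 50.6 and 74.2 CPM in DomKD (log2 fold change -0.19, SE 0.20, adjusted p = 0.552). AlaRS had 81.7, 92.0 and 84.1 CPM in Ctrl and 79.3, 92.5 and 109 CPM in DomKD (0.19, SE 0.17, adjusted p = 0.493). For GlnRS, DomKD B1 lay inside the Ctrl range, and for AlaRS 2 of the DomKD libraries lay above it.

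For the 2 lowest genes per kilobase, and for 2 more with a library at 0, replicates of a group differed widely. SerRS-m had 1.49, 0.984 and 0.657 CPM in Ctrl and 6.58, 2.22 and 0.748 CPM in DomKD. ValRS-m had 0.922, 0.984 and 0.696 CPM in Ctrl, 5.46 CPM in DomKD A1, and no read in DomKD A2 and B1. CysRS-m had no read in DomKD B1 beside 6.58 CPM in DomKD A1, and IleRS-m none in DomKD A1 beside 10.6 CPM in Ctrl A1. Reads were counted without removal of duplicates, so a few molecules can give a run of reads at such genes, and no direction is read from these 4. IleRS-m is among the 15 genes with DomKD below only by the order of its libraries. GlyRS, which charges glycine tRNA, had 2.35 to 5.32 CPM in Ctrl and 1.27 to 13.9 CPM in DomKD, with DomKD A1 and A2 above Ctrl and DomKD B1 below it. The same split held for TrpRS (12.3 to 15.1 CPM in Ctrl; 22.9, 21.3 and 9.35 CPM in DomKD) but not for its mitochondrial counterpart TrpRS-m (15.1 to 16.4 CPM in Ctrl; 3.46, 12.1 and 17.0 CPM in DomKD).

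For 13 amino acids both compartments have a gene of their own, giving 14 pairs since phenylalanine has 2 cytoplasmic subunits. In Ctrl the cytoplasmic gene was higher per kilobase in all 3 libraries in 9 pairs, and the mitochondrial gene in 5. ValRS exceeded ValRS-m 18.1-fold (13.3 to 22.0 over the libraries) and SerRS exceeded SerRS-m 17.6-fold (9.44 to 34.5). IleRS exceeded IleRS-m 6.83-fold (6.24 to 7.84). In contrast AspRS stood at 0.390 of AspRS-m (0.361 to 0.420), beta-PheRS at 0.426 of PheRS-m and LeuRS at 0.689 of LeuRS-m (0.617 to 0.804). ArgRS and ArgRS-m were nearly level, at a ratio of 1.03 (1.01 to 1.05). In DomKD both genes fell past the threshold for 2 of the 14 pairs, AsnRS with AsnRS-m and alpha-PheRS with PheRS-m. For leucine the cytoplasmic gene fell while LeuRS-m had 42.6 to 48.3 CPM in Ctrl and 31.2, 59.2 and 62.7 CPM in DomKD (0.26, SE 0.27, adjusted p = 0.540). For arginine only the mitochondrial gene fell past the threshold. ArgRS had 30.9 to 40.7 CPM in Ctrl and 24.6 to 31.0 CPM in DomKD (-0.33, SE 0.27, adjusted p = 0.425). Whether the 2 genes of a pair differed in their change was not tested.

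**Figure D3:**
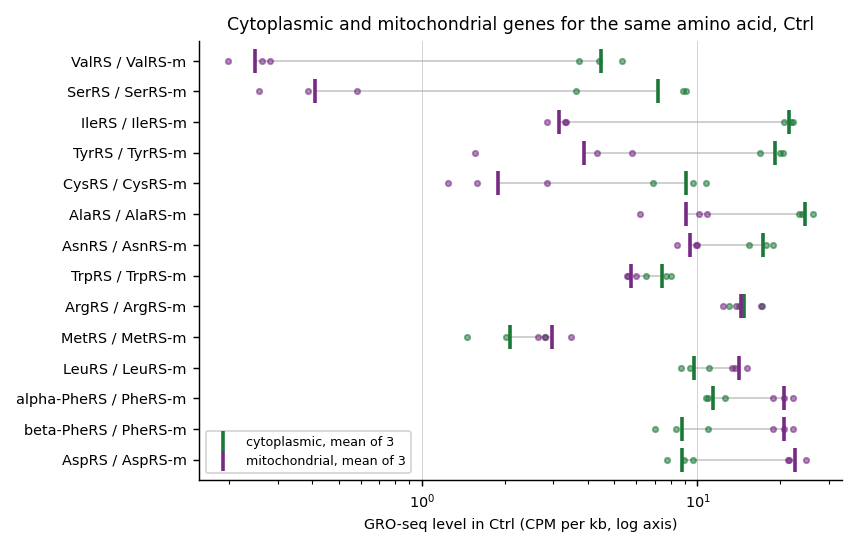
Levels in Ctrl of the cytoplasmic (green) and mitochondrial (purple) gene for the same amino acid, in CPM per kb on a log axis (points, 3 libraries; vertical ticks, their mean). The pairs are ordered by ratio, from ValRS 18.1-fold above ValRS-m at the top to AspRS at 0.390 of AspRS-m at the bottom.

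The compartments were also averaged within each library. The mean log2 CPM of the mitochondrial set was 3.74, 3.77 and 3.78 in Ctrl and 2.93, 2.83 and 2.78 in DomKD. The cytoplasmic set had 4.79, 4.55 and 4.72 in Ctrl and 4.48, 4.40 and 3.88 in DomKD, with DomKD B1 well below the other libraries. The cytoplasmic mean minus the mitochondrial mean was 1.05, 0.78 and 0.94 in Ctrl and 1.54, 1.57 and 1.10 in DomKD. This difference was higher in DomKD by 0.51 in batch A and by 0.25 in batch B. It rests on CysRS-m, IleRS-m and ValRS-m, which had DomKD libraries without a read. Without these 3 genes, an alternative added after the values were seen, the mitochondrial means were 4.17, 4.29 and 4.34 in Ctrl and 3.49, 3.55 and 3.80 in DomKD. The cytoplasmic minus mitochondrial difference was then higher in DomKD by 0.29 in batch A and its change was -0.24 in batch B, so the batches had opposite signs. No difference between the compartments is read from these means. All synthetase genes together took 0.122 to 0.1504% of the reads in Ctrl and 0.0640 to 0.0677% in DomKD.

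The size of these shifts rests on how the libraries were scaled. With TMM scaling, of 48 tested genes on a list of known targets of Zelda, the activator of early zygotic transcription, 44 rose and none fell. With total counts as the scale, 16 synthetase genes were lower beside 26.3% of all tested genes, and the median was -1.07 beside -0.56. When the libraries were scaled on the Zelda targets, as the study did with its own list of them, 23 were lower beside 45.6%, and the median was -1.58 beside -1.06. The median of the synthetase genes minus that of all tested genes was -0.51 with TMM (the trimmed mean of M-values, used above), -0.51 with total counts and -0.52 with Zelda targets. A change of scaling moves all genes by nearly the same amount. This difference could therefore hardly change, and its sameness is no check of the result. The number of genes with a negative log2 fold change was 28, 32 and 33 in that order, and LysRS was positive each time. The median of all tested genes moved down in the same order, so the rise in this number is not read as particular to the synthetase genes. The AlaRS value was -0.29 (adjusted p = 0.227) with total counts and -0.80 (adjusted p = 0.00679) with Zelda targets, and those of LeuRS-m (-0.22 and -0.73) and GluRS-m (-0.09 and -0.60) also turned negative.

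**Figure D4:**
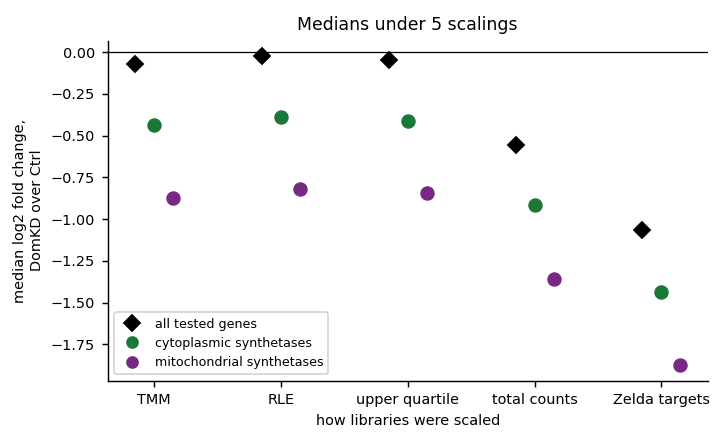
Median log2 fold change, DomKD over Ctrl (vertical axis), of all tested genes (diamonds) and of the cytoplasmic and mitochondrial synthetase genes (circles) under 5 ways of scaling the libraries (horizontal axis). The cytoplasmic median moved from -0.44 with TMM to -1.44 with Zelda targets, and the median of all genes moved alongside.

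The enzymes fall into class I and class II, whose catalytic domains have unrelated folds. Among 15 tested class II genes 6 fell (AsnRS, SerRS, alpha-PheRS, AsnRS-m, AspRS-m and PheRS-m), and among 18 class I genes 3 fell (IleRS, LeuRS and ArgRS-m). These are 40.0% and 16.7%, beside 9.64% of all tested genes. The medians were -0.81 and -0.58, and the difference between the classes was not tested. GluProRS, which holds a domain of each class, was left out of both. In mammals a number of cytoplasmic synthetases are bound in a multi-synthetase complex. Of the 8 fly genes for these enzymes 2 fell, and of the other 11 tested cytoplasmic genes 3 fell (25.0% and 27.3%).

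The promoter elements were then set beside the calls. At least 1 of DRE, Ohler1, Ohler6 and Ohler7 was present at 4 of the 9 (IleRS, AsnRS-m, AspRS-m and PheRS-m). Among all tested synthetase genes, 4 of 17 with an element fell (23.5%) and 5 of 17 without one (29.4%). Over tested protein-coding genes the shares that fell were 14.5% of 4271 with an element and 7.28% of 4929 without. AlaRS, with a DRE 19 bases and an Ohler7 match 31 bases before its start, had a log2 fold change of 0.19, and IleRS, with a DRE 42 bases before the start, fell by 0.59. AspRS-m has an Ohler1 match at position 6 of the transcript.

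Many of these promoters face another gene. For 23 of the 35 genes (65.7%), a protein-coding gene on the other strand starts within 1000 bases upstream, against 33.4% of 13845 protein-coding genes. The gap ran from 35 bases (AlaRS-m and Fitm) to 561 bases. In 21 pairs both genes were tested. The synthetase gene fell in 6 and the neighbour in 4 (19.0%, beside 9.64% of all tested genes), and both fell only for LeuRS and CG17593, which lie 216 bases apart. CG17593 had a mean of 42.9 CPM in Ctrl and 17.9 CPM in DomKD (log2 fold change -1.35, SE 0.31, adjusted p = 0.0104). At GluProRS, the neighbour AP-1sigma, a subunit of a vesicle coat adaptor, fell by 1.61 on the log2 scale (SE 0.30, adjusted p = 0.00394). At LysRS, the neighbour Hecw, a ubiquitin ligase 62 bases away, fell from 80.7 to 40.1 CPM (-1.18, SE 0.22, adjusted p = 0.00395) while the LysRS value was positive. Dhc64C, the dynein heavy chain gene beside LeuRS-m, fell from 90.0 to 59.4 CPM (-0.69, SE 0.22, adjusted p = 0.0399).

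For 3 pairs the neighbour rose (14.3%, near the 12.1% of all tested genes). Kdm4B, a histone demethylase gene 513 bases from ValRS, rose from 31.0 to 110 CPM (log2 fold change 1.49, SE 0.19, adjusted p = 0.000767), while ValRS had 14.4 to 20.6 CPM in Ctrl and 33.8, 17.5 and 6.80 CPM in DomKD (-0.43, SE 0.48, adjusted p = 0.575). CG33158, beside TyrRS, rose from 59.1 to 109 CPM (0.87, SE 0.25, adjusted p = 0.0265), and TyrRS was near 0 (-0.01, SE 0.25, adjusted p = 0.991). Plp, a centrosomal protein gene beside GlyRS, rose from 407 to 692 CPM (0.56, SE 0.16, adjusted p = 0.0293). These rises depend on the scaling. With Zelda targets Kdm4B was at 0.49 (adjusted p = 0.133), CG33158 at -0.13 (adjusted p = 0.747) and Plp at -0.44 (adjusted p = 0.0192, a call in the opposite direction), and with total counts only Kdm4B passed (1.01, adjusted p = 0.00398). At AsnRS, the member with the lowest adjusted p, the neighbour DCTN6-p27 had 16.7 CPM in Ctrl and 5.91 CPM in DomKD (-1.26, SE 0.59, adjusted p = 0.154). Differences between the genes of a pair were not tested.

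**Figure D5:**
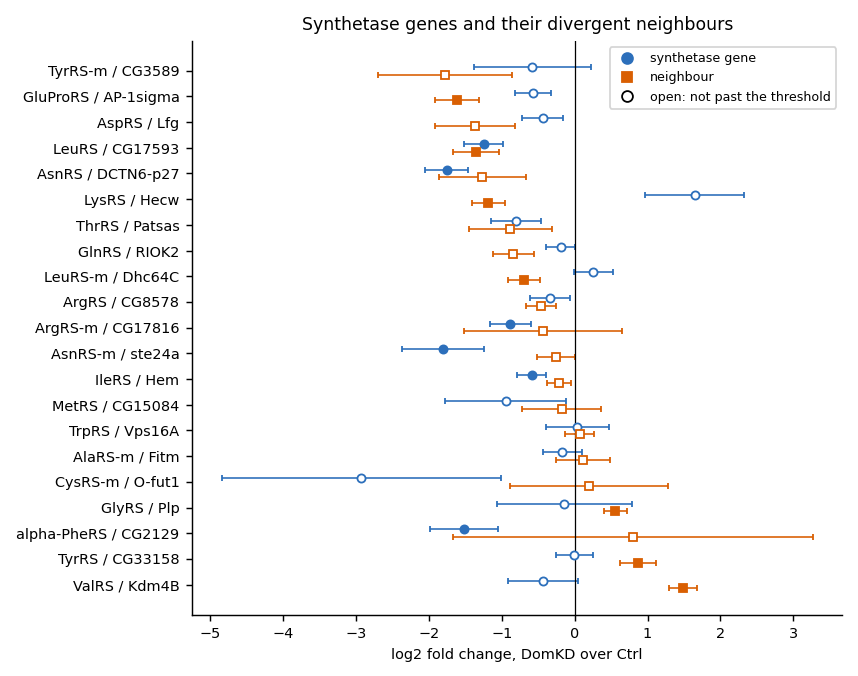
Log2 fold change, DomKD over Ctrl (horizontal axis; bars, SE), of synthetase genes (blue circles) and the protein-coding gene that starts on the other strand within 1000 bases (orange squares) for the 21 pairs tested; filled markers passed the threshold. Only the LeuRS pair has both markers filled, and the rising neighbours, up to 1.49 for Kdm4B, stand at the bottom.

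Genes that work beside the synthetases were taken from short lists, in which the 9.64% lower and 12.1% higher over all tested genes would also give few calls. The scaffold proteins of the multi-synthetase complex (AIMP1, AIMP2, AIMP3), the mitochondrial synthetase-like gene Slimp, GatA of the mitochondrial glutamine route and the editing enzyme Dtd were all tested, and none of the 6 passed (median -0.49). AIMP1 and AIMP2 had log2 fold changes of -0.52 (SE 0.32) and -0.79 (SE 0.50), and AIMP3 one of 0.56 (SE 0.25). None of 7 cytoplasmic elongation factor genes passed, although all 7 values were positive (median 0.38). Of 7 tested mitochondrial translation factors 1 fell, the ribosome recycling factor gene mRRF2 (31.5 to 15.8 CPM, log2 fold change -0.92, SE 0.29, adjusted p = 0.0445). Among 12 tested genes of amino acid sensing and stress signalling, Gcn2, the kinase that responds to uncharged tRNA, fell from 45.4 to 19.6 CPM (-1.27, SE 0.26, adjusted p = 0.00598). S6k, a growth-promoting kinase, rose from 381 to 788 CPM (1.05, SE 0.15, adjusted p = 0.00128), but was at 0.05 (adjusted p = 0.793) with Zelda scaling. The transcription factor crc (ATF4), which induces synthetase genes in mammals, had a log2 fold change of -0.13 (SE 0.15, adjusted p = 0.588).

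Other large families of the protein synthesis machinery are given side by side. Of 70 tested mitochondrial ribosomal protein genes 5 fell (7.14%) and 2 rose (2.86%, median -0.39), both under the 9.64% and 12.1% of all tested genes. Of 87 cytoplasmic ribosomal protein genes 1 fell (1.15%) and 17 rose (19.5%, median 0.29). Of 36 translation initiation factor genes 4 fell and 4 rose (11.1% each, near the share over all genes; median -0.09), and of 34 proteasome genes 2 fell (5.88%) and 1 rose (2.94%, median -0.22). The cytoplasmic ribosomal median was -0.19 with total counts and -0.71 with Zelda targets, so its sign depends on the scaling, and that of the elongation factors was -0.11 and -0.62. The mitochondrial ribosomal median was -0.88 and -1.40, below 0 under all 3 scalings. The median of all tested genes was also below 0 each time, at -0.07 with TMM, -0.56 with total counts and -1.06 with Zelda targets. The cytoplasmic ribosomal and elongation factor medians were above it and the mitochondrial ribosomal median below it, an order that scaling can hardly change. No difference between the families was tested.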

How the data were processed

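GRO-seq reads of 6 stage 5 embryo libraries were trimmed with cutadapt 2.5, given random-tag handling with UMI-tools 1.0, aligned to dm6 with Bowtie2 and counted per gene with featureCounts by the authors. The deposited values are raw counts per gene on the gene's strand, made without removal of duplicates, beside a gene length. Names and positions came from Ensembl release 115, which matched 17626 of 17753 identifiers (127 did not match). No sample column was left unused.

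The members and gene lists were chosen with earlier results of these data known. Genes averaging 10 counts or more were fitted with edgeR 4.0.16 (R 4.3.3; TMM scaling, batch and group as terms, robust quasi-likelihood F test, two-sided), and p-values were adjusted over all tested genes. CPM used TMM-scaled library sizes, and log2 CPM a prior count of 2. SE is the log2 fold change over the square root of F. The script was tested on simulated data. Depth was 10660708 to 24537992 counts per library, and SDs are over 3 libraries. The libraries are described as biological replicates of pooled embryos. Values in every library were printed for members past the threshold, for the 3 highest and 3 lowest by Ctrl CPM per kb, and for the untested member, and for others by choice after their values were seen.

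Alternatives were total counts, RLE, upper quartile, Zelda target scaling, no count filter, a mean of 50 counts, no batch term, a replicate block, DESeq2 1.42.0, each library left out, and each batch alone. Of the gene lists, names found in the table were 50 of 51 Zelda targets, 6 of 14 synthetase partners, 7 of 8 elongation factors, 8 of 11 mitochondrial factors, 14 of 17 stress genes and 9 of 10 germline markers.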

Additional observations from a re-analysis of the deposited data

How the results depend on the processing

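The direction of each of the 9 lower genes was the same in all 16 other fits, and their calls were kept in 5 to 15 of them. The number of lower genes was 9, and it was 16 with total counts, 23 with Zelda target scaling, 25 with DESeq2 on Zelda target scaling without batch (beside 46.8% of all tested genes), and 3 without the batch term (beside 6.82%). The medians over all, cytoplasmic and mitochondrial genes were -1.07, -0.92 and -1.36 with total counts, -1.58, -1.44 and -1.87 with Zelda target scaling, and -1.77, -1.71 and -1.99 in that DESeq2 fit. The mitochondrial median was -0.78 without the batch term, -0.79 within batch A and -0.79 within batch B. Without the 3 mitochondrial genes that had a library at 0 it was -0.66, and the change of the cytoplasmic minus mitochondrial mean in batch B was -0.24 in place of 0.25 (chosen after seeing the data). DESeq2 with batch called 1 higher gene, LysRS. Leaving out 1 library at a time gave 0 to 13 lower genes, 0 to 1 higher genes, and medians of -0.85 to -0.41 for all, -0.63 to -0.31 for cytoplasmic and -0.87 to -0.72 for mitochondrial genes. Whether same-numbered libraries of a batch are pairs could not be told from the counts. Their deviations correlated at 0.20 in batch A and 0.24 in batch B, beside 0.16 and 0.24 for the other pairs within those batches. A replicate block, which joins A1 with B1, was also used in place of the batch term. With it 2 genes were lower (beside 4.08% of all tested genes) and the mitochondrial median was -0.77. The number of lower genes was 7 with RLE (beside 8.51% of all tested genes), 8 with upper quartile (8.88%) and 11 with no count filter (10.5%). It was 8 with a mean of 50 counts (11.4%, with 32 synthetase genes tested) and 8 in DESeq2 with batch (11.4%). Between 150 bases before and 50 after the start, 16 genes in place of 17 held a DRE or Ohler element. Depth limits the genes with few reads, for which counting error is not the only error since duplicates were kept.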
